A study of Mus musculus with 12 samples.

Results

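The comparison described here is that of *Fmr1* knockout (KO) with wild-type (WT) mice when both genotypes had received Nutlin-3. It rests on 6 hippocampal poly(A) RNA-seq libraries of the 12 in the series, and its members were chosen by the group given in the sample labels. KO-Nut3 comprised the libraries of animals RH6, RH8 and RH13, and WT-Nut3 those of animals RH1, RH9 and RH14. All of these mice, of C57BL/6 background, had been given Nutlin-3 by intraperitoneal injection when 2 months old, and their tissue was taken at 6 months. According to the methods the drug was given in 5 injections of 10 mg/kg. KO-Veh (RH7, RH10 and RH16) and WT-Veh (RH2, RH5 and RH15), which received the vehicle alone on the same schedule, share no library with the comparison and served as a second measurement of the genotype difference. The labels give one library per RH number, read here as the animal number, and no litter or dissection day. *P*-values measure the spread between these libraries. The hippocampus was sequenced as a whole, so that fewer cells of a type and less RNA per cell cannot be told apart.

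*Fmr1* encodes FMRP, a protein best known for holding back the synthesis of synaptic proteins from the mRNAs to which it binds. Its loss causes fragile X syndrome, and in the hippocampus it alters synaptic plasticity and the production of new granule neurons. *Mdm2* encodes the ubiquitin ligase that marks the p53 protein for degradation and is itself bound and controlled by FMRP. Nutlin-3 is a small molecule that occupies the p53-binding pocket of MDM2. The comparison asks what still separated the genotypes at the RNA level months after both had been given the drug.

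Reads counted on genes came to 19873696 in WT-Nut3 RH1, 20040482 in RH9 and 17949695 in RH14. In KO-Nut3 they came to 17334895 in RH6, 17221891 in RH8 and 18234575 in RH13, so that each KO library except RH13 was shallower than every WT library. Levels are given as CPM, the read count scaled to a common library size with TMM normalization factors, and a gene with 3 counts lay at no more than 0.172 CPM in these libraries, a floor that covers counting error only. The markers of the hippocampal neurons were present in all 6 libraries. Genes typical of dentate granule neurons (16 genes) summed to 977 to 1308 CPM and those typical of CA pyramidal neurons (18 genes) to 854 to 1241 CPM in the 6 libraries.

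Several libraries stood apart from the others of their group in genes of neighbouring tissue. In KO-Nut3 RH6 the 17 thalamus and habenula markers summed to 529 CPM, against 229 to 260 CPM in the other KO-Nut3 libraries and 210 to 229 CPM in WT-Nut3, while its CA pyramidal markers (854 CPM) were the lowest of the 6. Among the 15397 genes with a mean of at least 1 CPM, RH6 held the highest value for 23.6% of genes, whereas the other 5 libraries held it for 13% to 17.5% each. It exceeded the next library by 2-fold or more for 106 genes, against 0 to 32 genes in the others. The choroid plexus epithelium list (30 genes) summed to 279 CPM in WT-Nut3 RH1, 7186 CPM in RH9 and 302 CPM in RH14, and to 5605, 834 and 7668 CPM in KO-Nut3 RH6, RH8 and RH13. No gene of that list was at 0 in these 6 libraries, and its member with the most reads was *Ttr*. Fibroblast genes of the meninges and stroma (23 genes) summed to 212, 316 and 162 CPM in WT-Nut3 and to 358, 526 and 327 CPM in KO-Nut3, in the same order of animals, so that every KO library lay above every WT library. Results that move with these lists are given below with the list values beside them. The fibroblast score of a library, the mean log2 CPM of that list, was 1.464 to 2.515 in WT-Nut3 and 2.529 to 4.018 in KO-Nut3. A fit with this score as a term therefore cannot tell fibroblast content from genotype.

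**Figure D1:**
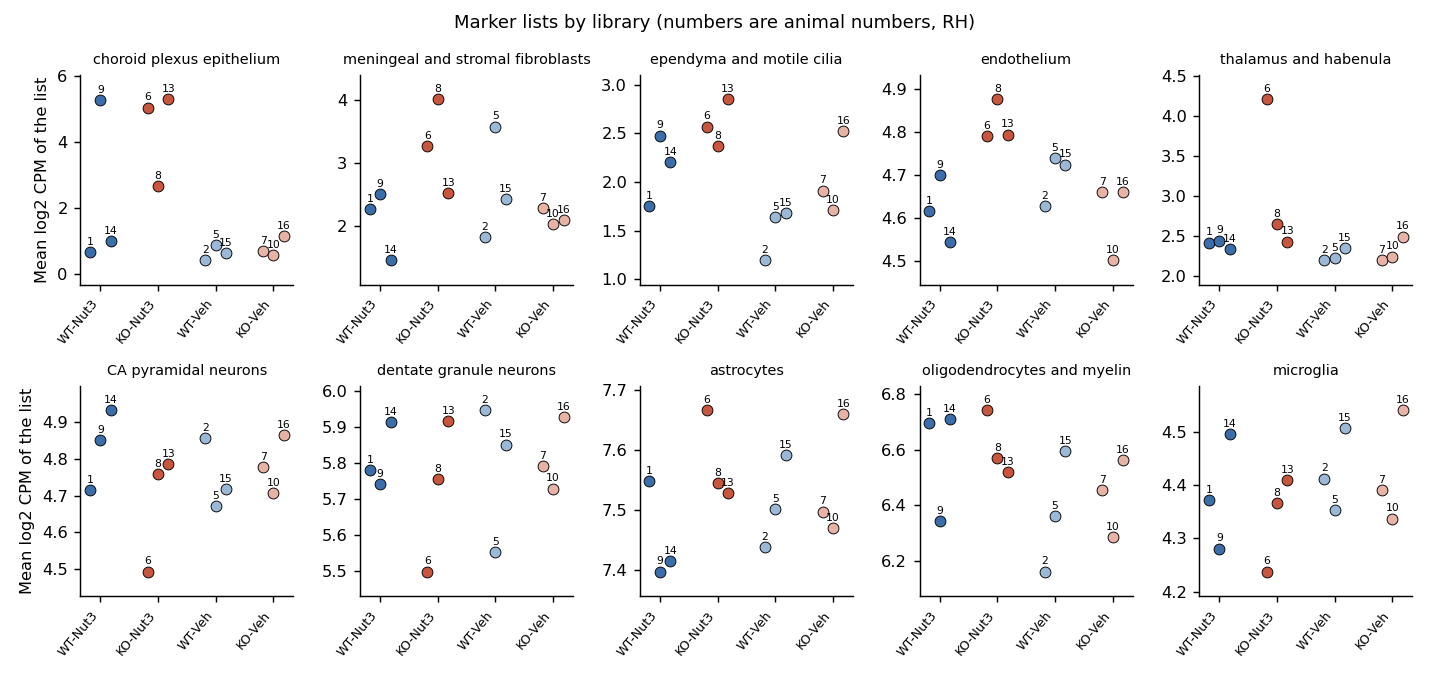
Mean log2 CPM of the genes of 10 marker lists (y axis) in each of the 12 libraries, grouped on the x axis by genotype and treatment, with 1 point per animal and its number above it. Choroid plexus markers are high in RH9, RH6 and RH13 and intermediate in RH8, thalamic markers stand out in RH6 (4.22 against 2.34 to 2.65 in the other 5 Nutlin-3 libraries), and the endothelial means of all 3 KO-Nut3 libraries lie above those of WT-Nut3.

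*Fmr1* itself (chrX:68678541-68717963, GRCm38) checked the genotype labels. Its level was 75.1 CPM in WT-Nut3 RH1, 73.9 CPM in RH9 and 78.3 CPM in RH14, and 30.6 CPM in KO-Nut3 RH6, 28.5 CPM in RH8 and 35.7 CPM in RH13. All KO libraries lay below all WT libraries. The mean fell from 75.8 ± 2.26 CPM (SD, n = 3) to 31.6 ± 3.71 CPM (SD, n = 3), a log2 fold change of -1.27 (SE 0.0884, edgeR adjusted *P* = 0.00405). The KO animals thus retained 41.7% of the WT read level with Nutlin-3 and 44.1% with vehicle, where the log2 fold change was -1.18, and the interaction of genotype and treatment was not significant (edgeR adjusted *P* = 0.994). Without WT-Nut3 RH14 the adjusted *P*-value of *Fmr1* in edgeR was 0.099 at a log2 fold change of -1.25, and with the fibroblast score as a term it was 0.239 at -1.08.

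The paralogs of *Fmr1* encode proteins with the same RNA-binding domains. *Fxr1* ranged from 50.9 to 62.8 CPM in WT-Nut3 and from 59.1 to 65.9 CPM in KO-Nut3 (log2 fold change 0.11, SE 0.0892), and *Fxr2* from 142 to 149 CPM and from 148 to 153 CPM (0.05, SE 0.0521). The groups overlapped for both paralogs. Of the 18 genes for FMRP, its paralogs and its protein partners, *Fmr1* alone was called. Every KO library lay below every WT library for 3 of them, *Fmr1* included (16.7%, against 5.35% of all genes), and above for 2 (11.1%, against 5.3%). Without RH6 these counts were 5 (27.8%, against 9.86%) and 4 (22.2%, against 9.6%). *Cyfip2*, which links FMRP to the actin-regulating WAVE complex, was at 1046, 944 and 1040 CPM in WT-Nut3 and at 841, 921 and 911 CPM in KO-Nut3 (log2 fold change -0.19, SE 0.0772). *Stau2*, a double-stranded RNA-binding protein of dendritic transport granules, was at 122, 125 and 130 CPM against 114, 109 and 117 CPM (-0.15, SE 0.056). *Mov10*, an RNA helicase that binds FMRP, was at 16.1, 18 and 16.6 CPM against 18.8, 18.5 and 21.8 CPM (0.21, SE 0.104). *Stau1* was the second gene higher in every KO library. No partner gene passed the adjusted threshold in edgeR.

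**Figure D2:**
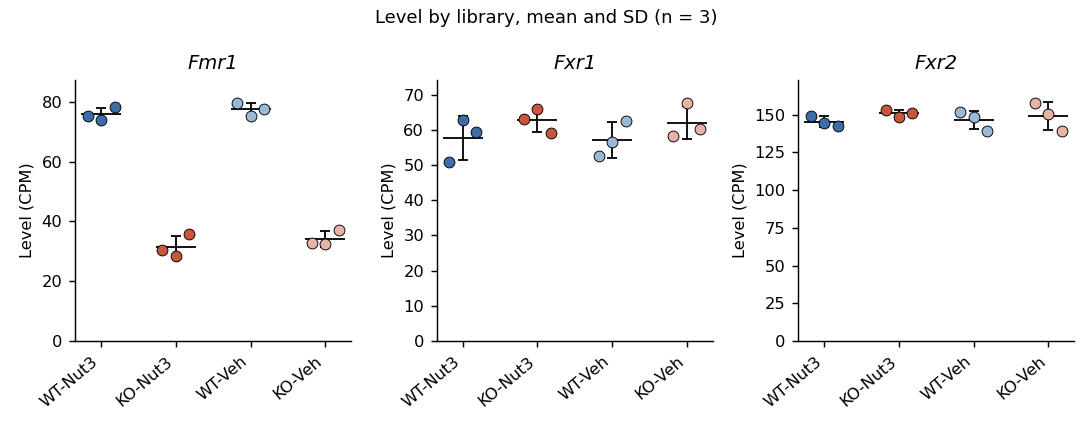
Level in CPM (y axis, from 0) of *Fmr1*, *Fxr1* and *Fxr2* in the 4 groups, with 1 point per library, a horizontal bar for the mean and whiskers for the SD (n = 3). *Fmr1* lies between 28.5 and 35.7 CPM in KO-Nut3 and between 73.9 and 78.3 CPM in WT-Nut3, while the groups overlap for both paralogs.

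Of the 22592 genes tested, whose summed count in the whole series exceeded 20, *Fmr1* was the only differentially expressed gene (DEG) at an adjusted *P*-value under 0.05 in edgeR, which is 0.00443% of the genes tested. The next smallest adjusted *P*-value was 0.928. At an unadjusted *P* under 0.05, 632 genes (2.8%) were higher and 469 genes (2.08%) lower in KO-Nut3. In 1198 genes (5.3%) every KO-Nut3 library lay above every WT-Nut3 library, and in 1209 genes (5.35%) every one lay below. The median log2 fold change over all genes was 0.00485 with quartiles of -0.12 and 0.16. DESeq2 called 7 genes of 19499 with an adjusted *P*-value (0.0359%). Among these were *Fmr1* and *Rreb1*, which were lower, and *Zic4*, *Vwf*, *Mrc2* and *Wfikkn2*, which were higher. In the vehicle libraries 4 genes were called in edgeR (0.0177%), namely *Fmr1*, *Gm21887*, *Col5a1* and *Wfs1*, and no gene passed the edgeR test of the interaction, for which 942 genes had an unadjusted *P* under 0.05 and DESeq2 called *Gm21887* alone.

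**Figure D3:**
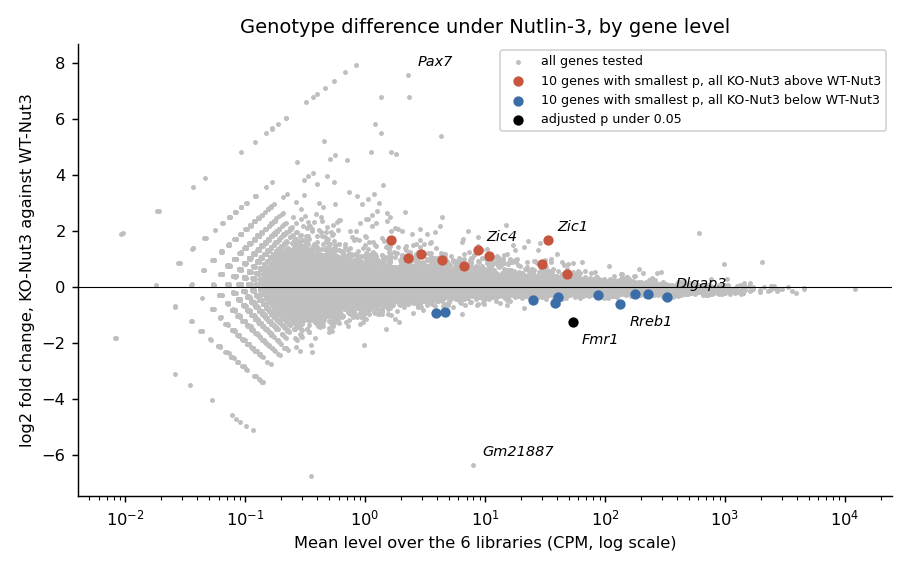
Difference between KO-Nut3 and WT-Nut3 on the log2 scale (y axis) by the mean level over the 6 libraries (x axis, CPM, log scale) for each of the 22592 genes tested (grey). *Fmr1* (black) is the only gene past the adjusted threshold in edgeR, red and blue points are the 10 genes per direction with the smallest unadjusted *P* among genes of at least 1 CPM whose groups do not overlap, and the largest fold changes belong to genes of low mean level.

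The mRNAs best known as FMRP targets lay lower in KO-Nut3 as a list, although none of the 39 was called. In 13 of them (33.3%, against 5.35% of all genes) every KO-Nut3 library lay below every WT-Nut3 library, and in 0 of them did every library lie above. The log2 fold change was negative for 34 of the 39, with a median of -0.14 against 0.00485 over all genes. The summed level of the list was 21428, 19637 and 20924 CPM in WT-Nut3 RH1, RH9 and RH14, and 16698, 19428 and 19244 CPM in KO-Nut3 RH6, RH8 and RH13. The KO sums lay below all WT sums, with RH8 and RH13 close under RH9 and RH6 far below. The CA pyramidal markers had a median of -0.22, and 1 of the 18 had its groups apart in the lower direction (5.56%, against 5.35% of all genes). Their mean log2 CPM overlapped between the groups (4.71 to 4.93 in WT-Nut3 and 4.49 to 4.78 in KO-Nut3). The same markers summed to 1223, 1192 and 1241 CPM in WT-Nut3 and to 854, 1139 and 1148 CPM in KO-Nut3, so that every KO sum lay below every WT sum. Their part in the difference of the target list was not tested. In the vehicle libraries the groups were apart in the lower direction for 10 of the 39 (25.6%, against 6.46% of all genes) and in the higher direction for 0 (against 5.9% of all genes), with a median of -0.10. Both treatments showed the lower direction for 7 of the 39 (17.9%, against 0.744% of all genes).

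Among these 7 genes were *Dlgap3*, *Shank3*, *Shank1*, *Map1b*, *Nlgn1* and *Eif4g3*, and the other 6 with groups apart under Nutlin-3 included *Grin2a*, *Bsn*, *Grin2b*, *Ankrd11* and *Nlgn2*. *Dlgap3*, a scaffold that ties PSD-95 to the Shank proteins of excitatory synapses, was at 404, 340 and 364 CPM in WT-Nut3 and at 268, 301 and 291 CPM in KO-Nut3. Its log2 fold change was -0.37 (SE 0.0795, unadjusted *P* = 0.00122 and adjusted *P* = 0.928 in edgeR), and it was -0.29 with vehicle. *Shank1*, a master scaffold of the postsynaptic density, was at 882, 746 and 769 CPM against 624, 668 and 660 CPM (-0.30, SE 0.0825), and it was also lower in every KO library with vehicle (-0.22). *Shank3*, its family member, was at 422, 397 and 414 CPM against 264, 357 and 340 CPM (-0.37, SE 0.105), and at -0.18 with vehicle. RH6 was the lowest of the 6 libraries for all 3 scaffolds, but RH8 and RH13 lay below each WT library too. *Map1b*, the microtubule-associated protein whose mRNA is a long-studied FMRP ligand, was at 1449, 1275 and 1382 CPM against 1217, 1203 and 1188 CPM (-0.19, SE 0.0772). For this gene RH6 was the highest of the KO libraries. *Grin2a*, an NMDA receptor subunit, was at 422, 394 and 443 CPM against 265, 360 and 377 CPM (-0.34, SE 0.122). *Camk2a*, the kinase of postsynaptic plasticity and the target with the most reads, was at 4287, 3931 and 4341 CPM against 2753, 4051 and 4035 CPM, and there the groups overlapped (-0.22, SE 0.149). The 5 targets with a positive log2 fold change were *Mmp9*, *Pde2a*, *Kcnt1*, *Diaph1* and *Kcnc1*, all with overlapping groups. The targets named here were chosen with their values known, *Camk2a* for its reads.

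Without RH6 the median of the target list was -0.09, and 15 of the 39 (38.5%) had groups apart in the lower direction against 9.86% of all genes for the same 5 libraries. Leaving out a library can only add genes to such counts, so the share of all genes is given for the same libraries throughout. Without RH9 the count was 24 of 39 (61.5%) against 10.9%. Without RH1 it was 13 (33.3%) against 9.52%, with 2 (5.13%) apart in the higher direction against 9.88%. With the thalamic score of each library as a term in edgeR the median was -0.09, with the choroid plexus score -0.10 and with the fibroblast score -0.16. The 39 targets have long transcripts, 34 of them in the longest quartile of genes. In the 4252 genes of that quartile (4235 bases or more) with a mean of at least 10 CPM the groups were apart in the lower direction for 8.51% with Nutlin-3 and for 1.86% under both treatments. Of the 34 targets in this class, 12 had groups apart in the lower direction with Nutlin-3.

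**Figure D4:**
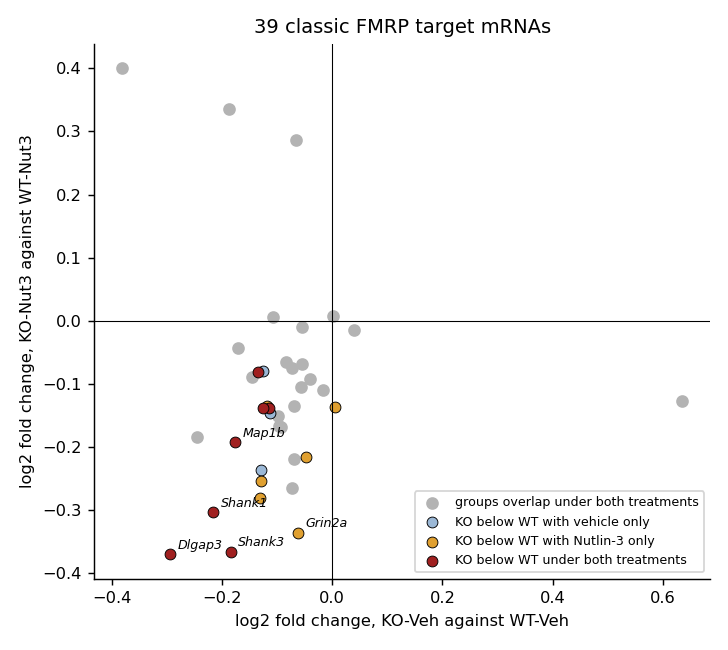
log2 fold change of KO against WT for the 39 classic FMRP target mRNAs with vehicle (x axis) and with Nutlin-3 (y axis), which were measured in separate libraries, with 1 point per gene. Red points are the 7 genes whose KO libraries all lay below the WT libraries under both treatments, orange points are the 6 for which this held with Nutlin-3 alone, light blue points are the 3 for which it held with vehicle alone, and *Dlgap3* lies at -0.29 with vehicle and at -0.37 with Nutlin-3.

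Glutamate receptors and postsynaptic scaffolds, a list of 36 genes that shares 8 with the FMRP targets, lay at a median of -0.10 (log2 fold change), and their groups were apart in the lower direction for 7 genes (19.4%, against 5.35% of all genes) and in the higher for 0 (against 5.3%). No member was called. Beyond the *Shank* and *Grin2* genes, these were the kainate receptor subunit *Grik5* and the scaffolds *Homer2* and *Homer3*, which couple metabotropic glutamate receptors to intracellular calcium stores. *Homer3* was at 33.2, 34.7 and 32.2 CPM in WT-Nut3 and at 22, 28.3 and 28 CPM in KO-Nut3 (-0.36, SE 0.108), and *Homer2* at 110, 111 and 118 CPM against 91, 104 and 101 CPM (-0.20, SE 0.0674). Their vehicle values were -0.15 and -0.00, with overlapping groups. Without RH6 the median of the list was -0.06 and 8 genes (22.2%) were apart in the lower direction, against 9.86% of all genes, and without RH9 16 (44.4%) against 10.9%.

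The list for the GABA system holds interneuron markers and GABA receptor subunits. Of its 30 genes, 1 had its groups apart in the higher direction (3.33%, against 5.3% of all genes) and 3 in the lower (10%, against 5.35%), with a median of -0.05. Without RH6 7 were apart in the lower direction (23.3%, against 9.86%) and the median was -0.03, and without RH1 6 in the lower (20%, against 9.52%) and 4 in the higher (13.3%, against 9.88%). *Gad2*, a GABA-synthesizing enzyme, was at 154, 152 and 156 CPM in WT-Nut3 and at 275, 163 and 166 CPM in KO-Nut3 (0.38, SE 0.178), with RH6 far above the rest. *Nos1*, neuronal nitric oxide synthase of interneurons, was at 139, 114 and 114 CPM against 90.9, 108 and 106 CPM (-0.27, SE 0.0987). The peptide *Cck* was at 278, 286 and 275 CPM against 167, 259 and 260 CPM (-0.30, SE 0.147), again with RH6 lowest.

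Activity-dependent immediate early genes, which neurons switch on within minutes of firing, lay on opposite sides of 0 under the 2 treatments. Over 25 genes the median was -0.17 with Nutlin-3 and 0.27 with vehicle. Groups were apart in the lower direction for 2 genes (8%, against 5.35% of all genes) with Nutlin-3 and in the higher direction for 4 genes with vehicle (against 5.9% of all genes), and the difference between the medians was not tested. The list summed to 1576, 1633 and 1711 CPM in WT-Nut3 and to 1342, 1710 and 1367 CPM in KO-Nut3. RH8 thus lay among the WT sums. With vehicle the sums were 1318, 1498 and 1872 CPM in WT and 1706, 1829 and 2058 CPM in KO, and they overlapped. Without RH8 12 of the 25 (48%, against 10.3% of all genes) were apart in the lower direction and the median was -0.28. Without any other library 2 to 4 (8% to 16%, against 9.1% to 11%) were apart in the lower direction. In the higher direction 0 to 2 were (0% to 8%, against 9.39% to 12.4%). With the fibroblast score as a term in edgeR the median was -0.37, and with the choroid plexus score -0.10. *Npas4*, an activity-induced transcription factor, was at 16.5, 15.5 and 23.7 CPM in WT-Nut3 and at 13.9, 13.7 and 7.8 CPM in KO-Nut3 (-0.66, SE 0.238). *Egr3*, a zinc finger factor, was at 126, 128 and 135 CPM against 91, 119 and 118 CPM (-0.25, SE 0.099). *Arc*, which drives AMPA receptor endocytosis and is a member of the FMRP target list too, was at 158, 163 and 184 CPM against 155, 187 and 123 CPM (-0.13, SE 0.135), while with vehicle it was at 91.7, 153 and 207 CPM in WT and at 201, 232 and 270 CPM in KO (0.64). The interaction of *Arc* had an unadjusted *P* of 0.0265 and an adjusted *P* of 0.994 in edgeR. *Arc* also differed by more than 2-fold within WT-Veh.

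*Mdm2* was at 55.2, 65.6 and 61.2 CPM in WT-Nut3 and at 60.4, 60.2 and 62.1 CPM in KO-Nut3 (log2 fold change 0.00033, SE 0.0751, unadjusted *P* = 0.997 in edgeR). *Trp53*, which encodes p53, was at 25.2, 24.8 and 25.7 CPM against 27.2, 27.5 and 25.5 CPM (0.08, SE 0.0799). None of the 14 MDM2 and p53 regulators had its groups apart (against 5.3% of all genes in the higher and 5.35% in the lower direction), and their median was -0.01. Without RH1 4 of the 14 (28.6%, against 9.52% of all genes) were apart in the lower direction. *Cop1*, another ubiquitin ligase of p53, was at 59.5 ± 3.14 CPM against 54.7 ± 2.5 CPM (SD, n = 3), with a log2 fold change of -0.13. *Usp7*, the deubiquitinase of both MDM2 and p53, was at 184 ± 5.15 against 181 ± 2.53 CPM (SD, n = 3). Among 28 target genes of p53 1 had its groups apart, in the higher direction (3.57%, against 5.3% of all genes), and the median was 0.05. Without RH8 the count was 6 (21.4%, against 11%) and without RH9 4 (14.3%, against 12.4%). With all 6 libraries the gene was *Pmaip1*, which encodes the apoptosis inducer NOXA, at 1.17, 0.993 and 1.23 CPM against 2, 1.95 and 1.37 CPM (0.64, SE 0.275), while *Bbc3*, which encodes its relative PUMA, was at 14.7, 10.8 and 10.2 CPM against 8.7, 10.3 and 8.84 CPM (-0.37, SE 0.165). *Cdkn1a*, the cell cycle inhibitor p21 and the best known p53 target, was at 5.87 ± 1.1 CPM against 6.03 ± 1.44 CPM (SD, n = 3), and it is named although its values were already known. *Zmat3*, the p53 target with the most reads, was at 97.1 ± 8.94 against 102 ± 4.91 CPM (SD, n = 3).

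Markers of adult neurogenesis and of the cell cycle (30 genes) had a median of -0.03, with groups apart in the lower direction for 4 (13.3%, against 5.35% of all genes) and in the higher for 2 (6.67%, against 5.3%), and none was called. Without RH9 the lower count was 8 (26.7%, against 10.9%). Without RH1 4 genes were apart in the lower (13.3%, against 9.52%) and 5 in the higher direction (16.7%, against 9.88%). The median was 0.04 without RH1 and 0.01 without RH8. *Neurog2*, a proneural transcription factor of intermediate progenitors, was at 1.77, 1.89 and 1.12 CPM in WT-Nut3 and at 0.333, 0.229 and 0.549 CPM in KO-Nut3, from 20 to 38 reads against 4 to 10 reads. Its log2 fold change was -2.09 (SE 0.404, unadjusted *P* = 6e-04 in edgeR), and with vehicle it was -0.63 with overlapping groups. *Ccnd1*, which encodes the G1 cyclin D1, was at 29.3, 29.7 and 34.4 CPM against 19.6, 24.2 and 28.2 CPM (-0.38, SE 0.133). *Igfbpl1*, found in newborn neurons, lay the other way, at 1.01, 1.14 and 2.75 CPM against 3.88, 3.21 and 4.5 CPM (1.24, SE 0.368). *Sox4* and *Top2a* made up the other genes that were lower in every KO library, and *Mcm2* the other that was higher.

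The 10 genes with the smallest unadjusted *P* in the lower direction, among those with a mean of at least 1 CPM and groups apart, had log2 fold changes from -0.25 to -0.93 and unadjusted *P*-values from 0.000619 to 0.00212 in edgeR, all with an adjusted *P* of 0.928. All 10 were negative with vehicle as well, and for 7 of them the vehicle groups were apart in the same direction, which held for 6.46% of all genes, and for 0.744% of all genes in both comparisons. *Rreb1*, a zinc finger transcription factor that binds Ras-responsive elements, was at 150, 171 and 165 CPM in WT-Nut3 and at 80.7, 117 and 119 CPM in KO-Nut3 (-0.62, SE 0.134). With vehicle it was at 174, 161 and 150 CPM in WT and at 125, 128 and 139 CPM in KO (-0.30), and DESeq2 called it with Nutlin-3 (adjusted *P* = 0.0186). *Serpina3n*, an acute-phase serine protease inhibitor of reactive astrocytes, was at 42.7, 45 and 49 CPM against 25.6, 32.6 and 34.9 CPM (-0.56, SE 0.117) and at -0.39 with vehicle. *Arhgap35*, a GTPase-activating protein, was at 250, 237 and 251 CPM against 207, 207 and 211 CPM (-0.25, SE 0.0538) and at -0.20 with vehicle, with little spread in either group. *Zfpm1*, a cofactor of GATA factors, was at 47.5, 41.7 and 47.1 CPM against 32.8, 36.4 and 36.3 CPM (-0.38, SE 0.0837) and at -0.33 with vehicle. *Sec1*, a fucosyltransferase gene, was at 7.05, 5.07 and 6 CPM against 2.55, 3.55 and 3.68 CPM (-0.89, SE 0.209) and at -0.59 with vehicle. *Dlgap3* and *Dact3*, which encodes an inhibitor of Wnt signaling, completed the 7. The other 3 were *Vipr1*, the receptor of vasoactive intestinal peptide (29.2, 30.2 and 28.4 against 19.2, 22.8 and 21.5 CPM), *Col4a2*, a basement membrane collagen (99.4, 97.5 and 92.9 against 75, 81.7 and 81.2 CPM), and *4921539H07Rik*, which had vehicle groups that overlapped.

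In the higher direction the matching 10 genes had log2 fold changes from 0.46 to 1.69 and unadjusted *P*-values from 0.000408 to 0.00129 in edgeR, with an adjusted *P* of 0.928. The sign was the same with vehicle for 7, and the vehicle groups were apart for 0 of the 10, against 5.9% of all genes. Over all genes 95 (0.421%) were apart in the higher direction in both comparisons. *Zic4* and *Zic1*, neighbouring zinc finger genes of the dorsal midline, thalamus and meninges, were among the 10. *Zic1* was at 11.4, 15.6 and 21 CPM in WT-Nut3 and at 76.7, 48.8 and 29.2 CPM in KO-Nut3 (1.69, SE 0.333), and *Zic4* at 4.01, 5.36 and 5.49 CPM against 16.4, 12.3 and 8.56 CPM (1.32, SE 0.241), which DESeq2 called (adjusted *P* = 0.00108). Both were highest in RH6, and both were also high in 1 vehicle library, KO-Veh RH16, at 51.1 and 12.8 CPM. RH16 also had the highest thalamic sum of the vehicle libraries (262 CPM against 201 to 216 CPM). Both genes belong to that list, of whose other members *Prkcd*, a protein kinase C of thalamic relay neurons, alone had groups apart with Nutlin-3 (23.2, 25.7 and 30.1 against 40.6, 38.5 and 33.6 CPM, log2 fold change 0.51). That makes 3 of 17 thalamic genes apart in the higher direction (17.6%, against 5.3% of all genes), and without RH13 7 (41.2%, against 11.4%). Without RH6 3 were apart in the higher (17.6%, against 9.6%) and 2 in the lower direction (11.8%, against 9.86%).

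*Gjb6*, the astrocyte gap junction protein connexin 30, was at 38, 41.1 and 42.2 CPM in WT-Nut3 and at 56.8, 60.9 and 49.5 CPM in KO-Nut3 (0.46, SE 0.0914). *Aqp4*, the water channel of astrocyte endfeet, was at 142, 129 and 133 CPM against 192, 174 and 152 CPM (0.35, SE 0.0878) and was apart in the same direction with vehicle (0.26). They were the 2 of 16 astrocyte markers with groups apart (12.5%, against 5.3% of all genes), and the median of the 16 was 0.07. The count was 5 (31.2%) without RH1 (against 9.88% of all genes) or without RH13 (against 11.4%). Without any other library it was 2 to 4 (12.5% to 25%, against 9.39% to 12.4%). *Hydin* and *Mapk15*, which act in motile and other cilia, were at 4.21, 5.31 and 5.27 against 8.59, 8.07 and 8.51 CPM (0.76, SE 0.15) and at 2.59, 3.68 and 2.64 against 5.49, 5.73 and 6.15 CPM (0.96, SE 0.193). The ependyma and motile cilia list (19 genes tested) had a median of 0.49 with Nutlin-3 and 0.605 with vehicle, with groups apart in the higher direction for 5 genes in each (26.3%, against 5.3% and 5.9% of all genes), and its summed level was 105, 157 and 135 CPM in WT-Nut3 and 149, 146 and 179 CPM in KO-Nut3, so the sums overlapped. In the vehicle libraries KO-Veh RH16 stood apart, with a sum of 155 CPM for this list against 86.9 to 110 CPM in the others. Without RH9 12 of the 19 (63.2%, against 12.4% of all genes) were apart in the higher direction and without RH8 8 (42.1%, against 11%), and fitting the choroid plexus score in edgeR gave a median of 0.15. Without any other library 5 or 6 (26.3% or 31.6%, against 9.39% to 11.4%) were apart in the higher direction. In the lower direction 0 or 1 were (0% or 5.26%, against 9.1% to 11%). *Tsku*, a secreted leucine-rich repeat protein that binds Wnt receptors and TGF-beta family ligands, was at 1.37, 1.49 and 1.57 CPM against 2.99, 2.98 and 3.18 CPM (1.04, SE 0.209), with a narrow spread in both groups. *Ifitm1*, an interferon-induced membrane protein, was at 0.456, 0.894 and 1.01 CPM against 2.27, 3.15 and 2.14 CPM (1.67, SE 0.338). *Mrc2*, a collagen-binding endocytic receptor of fibroblasts, was at 6.95, 7.6 and 6.05 CPM against 13.3, 20.4 and 10.4 CPM (1.09, SE 0.235). DESeq2 called it (adjusted *P* = 0.0157). *Aox3*, an aldehyde oxidase, was at 1.37, 2.19 and 1.79 CPM against 3.6, 5.1 and 3.51 CPM. For *Mrc2* RH8 was the highest library, which was also the highest for the fibroblast list. With the fibroblast score as a term in edgeR the log2 fold change of Mrc2 was 0.41, the log2 fold change of Aox3 0.83, the log2 fold change of Tsku 1.13 and the log2 fold change of Ifitm1 1.48.

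Among the genes of at least 1 CPM with the largest fold changes in the higher direction, 4 owed most of their reads to RH6. *Pax7*, a paired-box factor of the midbrain, had 247 reads in KO-Nut3 RH6 and 0 or 1 in each of the other 5. *Shox2*, a homeobox gene of the thalamus, had 246 reads in RH6 and at most 2 elsewhere, *Gata3*, a GATA factor of midbrain and brainstem neurons, had 141 reads and at most 4, and *Pou4f2*, a POU factor, had 118 reads and at most 6. *Foxp2*, which marks deep cortical layers and thalamus, was at 1.42, 1.29 and 1.23 CPM in WT-Nut3 and at 17, 3.67 and 1.65 CPM in KO-Nut3. *Rbp3*, known from photoreceptors and the pineal gland, was highest in RH8 instead, with 111 reads, and had 19 reads in RH6, 11 in RH13 and at most 3 in any WT-Nut3 library.

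*Gm21887* gave the largest fold change in the lower direction and the 2 treatments went opposite ways. With Nutlin-3 it had 1 read in WT RH1, 582 in RH9 and 329 in RH14, and 6, 0 and 4 reads in KO RH6, RH8 and RH13. With vehicle it had 1, 4 and 0 reads in WT and 193, 211 and 243 reads in KO. The groups thus overlapped with Nutlin-3 because of RH1, and the reads fell into an all-or-none pattern by animal. Leaving out RH1, edgeR called it (adjusted *P* = 0.0265). The gene lies at chrX:170009659-170019281 (GRCm38), near the end of the chromosome. Whether copies elsewhere share its reads was not tested.

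Extracellular matrix genes, with a list of 48, had a median of 0.43 with Nutlin-3 and of -0.30 with vehicle. In the vehicle libraries WT-Veh RH5 stood apart, with a fibroblast sum of 410 CPM against 199 to 236 CPM in the other 5 and a matrix sum of 1806 CPM against 1398 to 1514 CPM, and the vehicle medians of both lists include it. With Nutlin-3 the groups of the matrix genes were apart in the higher direction for 7 (14.6%, against 5.3% of all genes) and in the lower for 1 (2.08%, against 5.35%). With vehicle they were apart in the lower direction for 9 (against 6.46% of all genes). Without RH8 5 were apart in the lower direction (10.4%, against 10.3%) and 9 in the higher (18.8%, against 11%). Without RH9 23 (47.9%, against 12.4% of all genes) were apart in the higher direction, without RH13 17 (35.4%, against 11.4%) and without RH1 12 (25%, against 9.88%). No member was called in edgeR. The fibrillar collagen genes *Col1a1* and *Col1a2* were at 6.29, 8.64 and 4.6 CPM in WT-Nut3 against 11.9, 20.7 and 9.94 CPM in KO-Nut3 (1.12, SE 0.305) and at 9.53, 11.9 and 5.38 CPM against 23.2, 39.2 and 14 CPM (1.5, SE 0.378). *Lum*, a small proteoglycan that organizes collagen fibrils, was at 2.38, 3.63 and 2.07 CPM against 5.05, 6.41 and 5.11 CPM (1.02, SE 0.24), and *Timp3*, an inhibitor of metalloproteinases, was at 53.7, 80.2 and 56 CPM against 90.6, 94.1 and 84.2 CPM (0.50, SE 0.14). RH8 was the highest of the 6 libraries for all 4. The list shares 7 genes with the 23 fibroblast markers, all 23 of which had a positive log2 fold change (median 1.31, and -0.59 with vehicle), 18 with an unadjusted *P* under 0.05 (against 2.8% of all genes in the higher direction) and 6 with groups apart (26.1%, against 5.3%). Without RH13 19 fibroblast genes (82.6%, against 11.4%) were apart in the higher direction, without RH1 or RH9 11 (47.8%, against 9.88% and 12.4%), and without RH8 the median of the fibroblast list was 0.76. With the fibroblast score as a term in edgeR the median of the matrix list was 0.08, and with the choroid plexus score 0.24. The 7 shared genes enter the fibroblast score, which lay higher in every KO-Nut3 library, so that fit cannot tell fibroblast content from genotype. Without RH8 the matrix median was 0.36, and without WT-Nut3 RH14, the library with the lowest fibroblast sum, 0.23.

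Of 36 genes of the TGF-beta and BMP pathways, 10 (27.8%) had groups apart in the higher direction, against 5.3% of all genes. In the lower direction the signal transducer *Smad3* alone was apart (2.78%, against 5.35% of all genes), and the median of the 36 genes was 0.06. The secreted ligands of these pathways act through paired receptor kinases and SMAD proteins, and *Id* genes are induced by the BMP branch. Among the ligands, *Bmp6* was at 8.67, 21.4 and 6.56 CPM in WT-Nut3 against 24.3, 26.3 and 23.9 CPM in KO-Nut3 (1.01, SE 0.358), where RH9 lay close to the KO libraries. Among the receptors, *Tgfbr2* was at 20.8, 21.7 and 21.4 CPM against 25.9, 24.6 and 25.7 CPM (0.25, SE 0.0802), with little spread in either group. The inhibitor *Wfikkn2*, which binds myostatin and GDF11, was at 1.32, 2.93 and 0.392 CPM against 7.21, 5.84 and 5.33 CPM (1.96, SE 0.495), and DESeq2 called it (adjusted *P* = 0.0197). The target genes *Id1* and *Id3* were at 7.71, 12 and 7.57 CPM against 14.4, 14.4 and 12.8 CPM (0.60, SE 0.185) and at 23.3, 29.1 and 24.4 CPM against 32.4, 38 and 34.7 CPM (0.45, SE 0.107). With vehicle *Id1* and *Id3* were at 0.11 and -0.01, and *Bmp6*, *Wfikkn2* and *Tgfbr2* at -0.73, -0.96 and -0.32. Of the 5 genes *Tgfbr2* alone had its vehicle groups apart, in the lower direction. In WT-Nut3, RH9 was the highest library for all 5 genes. Without RH6 10 genes (27.8%) were apart in the higher direction and without RH9 14 (38.9%), against 9.6% and 12.4% of all genes. In the lower direction 5 were apart without RH1 (13.9%, against 9.52%). Without RH8, RH9 or RH13 3 were apart in the lower direction (8.33%, against 10.3%, 10.9% and 11%). With the fibroblast score as a term in edgeR the median of the list was -0.03, but that score does not overlap between the genotypes and cannot be told apart from genotype.

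Of the 14 genes of the insulin-like growth factor system *Igf2*, a growth factor made by meninges and choroid plexus, alone had its groups apart (7.14%, against 5.3% of all genes), at 1.01, 3.82 and 0.28 CPM against 5.43, 5.84 and 4.28 CPM (1.58, SE 0.626), and the median of the system was -0.01. Without RH9, the WT-Nut3 library with a choroid plexus sum of 7186 CPM, 4 of the 14 (28.6%, against 12.4%) were apart in the higher direction. *Igfbp2*, a binding protein, was at 19.1, 100 and 15.6 CPM against 87.5, 53 and 112 CPM (0.90, SE 0.616).

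The choroid plexus genes differed widely between libraries of the same genotype. *Ttr*, the thyroxine carrier secreted by choroid plexus epithelium, was at 12.9 CPM in WT-Nut3 RH1, 4213 CPM in RH9 and 18.2 CPM in RH14, and at 3090, 313 and 4518 CPM in KO-Nut3 RH6, RH8 and RH13. *Enpp2*, which encodes the lysophospholipase autotaxin, was at 157, 1819 and 164 CPM against 1532, 277 and 1944 CPM. *Aqp1*, the water channel of that epithelium, was at 0.456, 27.9 and 0.392 CPM against 23.1, 1.83 and 23.4 CPM, and *Tmem72* at 0.355, 62.5 and 0.392 CPM against 53.3, 4.18 and 67.5 CPM. The groups overlapped for all 4, with RH9 beside RH6 and RH13. All 30 genes of the list had a positive log2 fold change (median 0.89), yet *Slc13a4*, a sulfate transporter of choroid plexus and meninges, alone had its groups apart (3.33%, against 5.3% of all genes), at 4.46, 26.1 and 2.41 CPM against 36.6, 37.3 and 29.4 CPM. Without RH9 the median of the list was 3.59, 29 of 30 genes had groups apart in the higher direction (96.7%, against 12.4% of all genes) and edgeR called 7 genes, which were *Slc13a4*, *Fmr1*, *Dab2*, *Bmp6*, *H2-Aa*, *Angptl2* and *Lepr*. In the vehicle libraries the list summed to 234 to 284 CPM in WT and 240 to 300 CPM in KO. A list of 9 genes that the study assayed by qPCR shares 4 genes with the choroid plexus list. The study chose them among genes that differed between KO-Nut3 and KO-Veh, so the KO-Nut3 libraries used here had a part in their choice. Their values here are therefore not independent of that choice. The median of the qPCR list was 0.88 (2.95 without RH9), and 3 genes (8 without RH9, 88.9% against 12.4% of all genes) had groups apart in the higher direction, against 5.3% of all genes. The 3 were *Timp3*, *Bmp6* and *Igf2*. Leaving out any other library gave a median of the qPCR list from 0.392 (without RH1) to 1.26 (without RH8), and the choroid plexus score as a term gave 0.145. *Angptl2*, a secreted angiopoietin-like protein of that list, was at 2.89, 13.9 and 1.85 CPM against 12.3, 10 and 12.3 CPM.

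**Figure D5:**
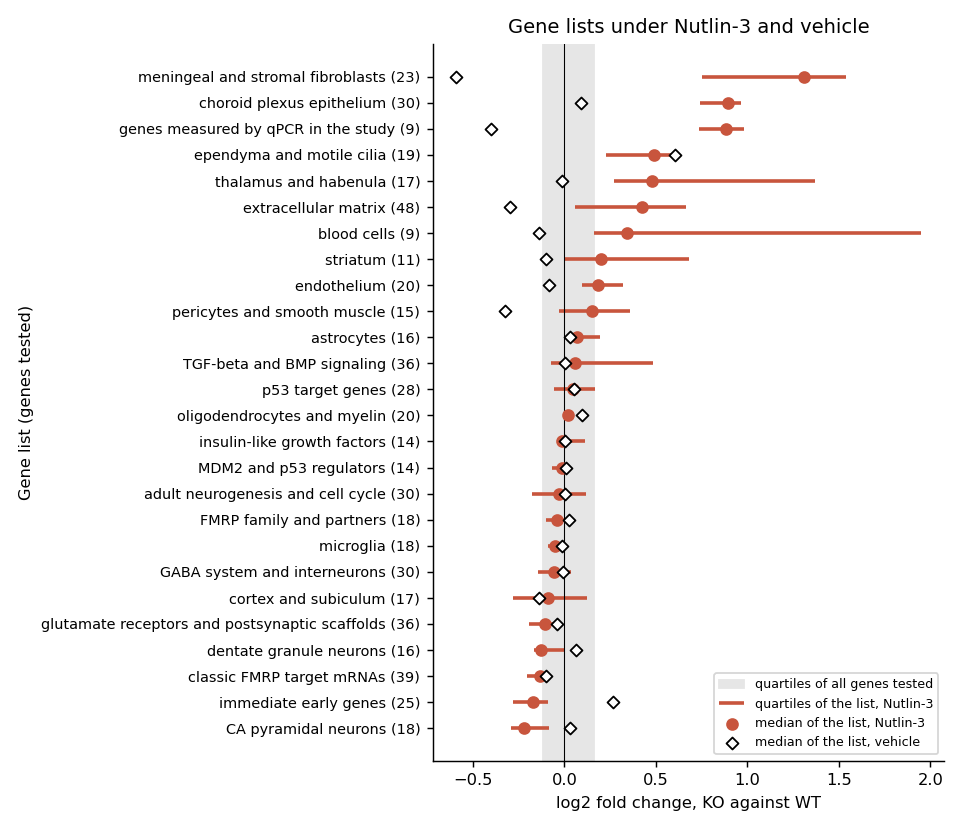
Median log2 fold change of KO against WT with Nutlin-3 (red points, with lines for the quartiles over the genes of the list) and with vehicle (open diamonds) for the 26 gene lists, with the number of genes tested in brackets and the quartiles of all genes tested (-0.12 to 0.16) in grey. Fibroblast, choroid plexus and qPCR lists lie highest with Nutlin-3 (1.31, 0.89 and 0.88), CA pyramidal and immediate early genes lowest (-0.22 and -0.17), and the medians of the matrix, fibroblast and immediate early lists lie on opposite sides of 0 under the 2 treatments. The study chose the qPCR genes among those that differed between KO-Nut3 and KO-Veh.

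Of 20 endothelial markers 5 (25%, against 5.3% of all genes) had groups apart in the higher direction and 0 in the lower, with a median of 0.18 (vehicle -0.09). With vehicle 5 of the 20 were apart in the lower direction (against 6.46% of all genes) and 0 in the higher. Without RH9 the count apart in the higher direction with Nutlin-3 was 11 (55%, against 12.4%) and without RH13 9 (45%, against 11.4%). Without any other library it was 5 to 7 (25% to 35%, against 9.39% to 11%). In the lower direction 2 were apart without RH14 (10%, against 9.1%) and 1 without RH8 (5%, against 10.3%). With the fibroblast score as a term in edgeR the median was 0.11. The summed level was 869, 1011 and 843 CPM in WT-Nut3 and 1030, 988 and 1048 CPM in KO-Nut3, so the sums overlapped. Much of the sum came from *Bsg*, the member with the most reads, at 348, 470 and 339 CPM against 440, 344 and 481 CPM. Like the choroid plexus list, *Bsg* was highest in RH9, RH6 and RH13. *Vwf*, the platelet-binding factor of endothelium, was at 16, 22.8 and 15.1 CPM against 33.4, 44.3 and 25.7 CPM (0.93, SE 0.214), and DESeq2 called it (adjusted *P* = 0.0157). The blood-brain barrier transporters *Slco1a4* and *Abcb1a* were at 42.4, 52.1 and 51.1 CPM against 59.9, 59.8 and 67.4 CPM (0.36, SE 0.0932) and at 32.3, 27.1 and 34.9 CPM against 39.6, 42.3 and 36.1 CPM (0.32, SE 0.109). Of 15 pericyte and smooth muscle markers, *Anpep*, an aminopeptidase of pericytes and fibroblasts, had its groups apart in the higher direction (6.67%, against 5.3% of all genes) and *Ndufa4l2* in the lower (6.67%, against 5.35%). *Anpep* was at 2.33, 2.78 and 2.58 CPM against 5.71, 8.25 and 3.9 CPM (1.21, SE 0.275). RH8 was the highest library for *Vwf* and *Anpep*, as it was for the fibroblast list (526 CPM), and with the fibroblast score as a term the log2 fold change of Vwf was 0.31 and the log2 fold change of Anpep 0.55. That score lay higher in every KO-Nut3 library, so these fits cannot tell fibroblast content from genotype. With vehicle the median of the pericyte list was -0.325, and 3 genes were apart in the lower direction (against 6.46% of all genes). The list summed to 357 CPM in WT-Veh RH5 and to 233 to 278 CPM in the other vehicle libraries. With Nutlin-3 the median of the pericyte list was 0.15, and it was -0.03 without RH8 and -0.15 with the fibroblast score. Blood cell genes (9 tested) had a median of 0.35, which was -0.05 without RH6. *Hba-a1*, a hemoglobin chain, was at 16.6, 17.5 and 23.6 CPM against 30.7, 19.2 and 23.8 CPM, and the neutrophil gene *S100a9* at 0.051, 0.05 and 0 CPM against 2.11, 0.573 and 0.604 CPM.

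Among glia and neurons, the CA pyramidal and dentate granule lists moved with RH6. Medians were 0.02 for 20 oligodendrocyte and myelin genes and -0.05 for 18 microglia genes, and 0 genes of either list had groups apart (against 5.3% of all genes in the higher and 5.35% in the lower direction). Without RH9 3 oligodendrocyte genes (15%) and 3 microglia genes (16.7%) were apart in the lower direction, against 10.9% of all genes. CA pyramidal markers had a median of -0.22, which was -0.07 without RH6, and dentate granule markers one of -0.13, which was 0.01 without RH6. *Spink8*, a protease inhibitor gene of CA1 neurons, was at 14.4, 16 and 17.3 CPM in WT-Nut3 and at 6.54, 12.1 and 13.3 CPM in KO-Nut3 (-0.59, SE 0.229). *Wfs1*, an endoplasmic reticulum protein gene of CA1 neurons that is mutated in Wolfram syndrome, was at 142, 100 and 121 CPM against 116, 81.7 and 78.7 CPM with overlapping groups (-0.40, SE 0.164), and it was called in the vehicle comparison at a log2 fold change of -0.44 (edgeR adjusted *P* = 0.0478). The medians were 0.48 for thalamus and habenula, 0.20 for striatum and -0.09 for cortex and subiculum, and without RH6 they were 0.08, 0.06 and -0.09. Without RH1 the cortex and subiculum median was 0.03, and without RH14 the striatum median was 0.02.

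The genes next to *Fmr1* on the X chromosome were examined because they travel with the mutated allele. Of 45 genes tested within 5 Mb on either side, 4 had groups apart in the higher direction and 0 in the lower, against 5.3% and 5.35% of all genes. *Cd99l2*, a cell surface glycoprotein gene at chrX:71420060-71492849 (GRCm38), was at 74.8, 69 and 68.4 CPM in WT-Nut3 and at 98.6, 74.8 and 82.5 CPM in KO-Nut3 (0.26, SE 0.0986), and it was also apart in the higher direction with vehicle (0.15). The others were *Mtm1*, *Xlr3b* and *Zfp275*, with overlapping groups in the vehicle libraries.

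Over all genes, 168 (0.744%) were apart in the lower direction under both treatments and 95 (0.421%) in the higher direction. In 48 genes the groups were apart in the higher direction with Nutlin-3 and in the lower direction with vehicle, and in 25 genes the reverse. By transcript length, groups were apart in the lower direction under both treatments for 0.408% of the shortest quartile of genes, 0.355% and 0.603% of the middle quartiles and 1.62% of the longest, 91 genes of 5633. The medians with Nutlin-3 were 0.01 for each of the first 3 quartiles and -0.01 for the longest.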

How the data were processed

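The deposited files hold raw counts of reads per Ensembl gene for each library, which the authors made with STAR on mm10 (per the submitters' processing notes; versions and gene annotation are not given in the sources used here). Counts over both strands were used, since the 2 strand columns held near equal shares, so reads of a gene and an antisense partner cannot be told apart. Of 55421 genes, 55240 were named through GENCODE M21. Genes were tested with edgeR 4.0.16 (TMM, quasi-likelihood F test, two-sided, Benjamini-Hochberg adjustment over the 22592 genes with a sum over 20 counts, threshold 0.05) in R 4.3.3, with the 6 libraries of a comparison and the group as the only term. The interaction was tested over all 12 libraries. A gene was called apart when every KO library lay above, or every one below, every WT library.

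The genes named in the text are the called genes, per direction the 10 uncalled genes with the smallest *P*-value among those apart with a mean of at least 1 CPM, the 5 with the largest fold change, *Fmr1* and *Mdm2* family genes, qPCR genes, up to 4 members per list with the smallest *P*-value plus the member with the most reads, and genes called under an alternative. Other genes were chosen after their values were seen. The comparison, its members and the 26 lists were chosen with earlier results of these data known. *Nov* and *Ctgf* were not found by symbol, and 6 other list genes, *Mia* and *Gbx2* among them, had too few reads to be tested. Some genes within the counts are not reported here. Alternatives were DESeq2 1.42.0, its size factors, limma-voom (limma 3.58.1), robust dispersion, other filters, all libraries in 1 fit, each library left out, and an animal number block or a marker score as a term. The block set RH8 or lower against RH9 or higher, a split that the labels do not name as a batch. The thalamus and fibroblast scores and the left-out counts of the lists were added after seeing the data. A per-series table of the same counts for fewer genes was not used. The edgeR and DESeq2 steps were tested on simulated data.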

Additional observations from a re-analysis of the deposited data

Results flagged for a closer look

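In *Lum* and *Tgfbr2* the genotype difference had one direction with Nutlin-3 and the other with vehicle, with groups that did not overlap in either. The log2 fold change of *Lum* was 1.02 with Nutlin-3 and -0.35 with vehicle, with an unadjusted *P* of 0.000462 and an adjusted *P* of 0.994 for the interaction in edgeR (DESeq2 adjusted *P* = 0.264). That of *Tgfbr2* was 0.25 with Nutlin-3 and -0.32 with vehicle, with an unadjusted *P* of 0.000332 and an adjusted *P* of 0.994 in edgeR (DESeq2 adjusted *P* = 0.264). *Lum* is one of the 23 fibroblast markers, whose median was 1.31 with Nutlin-3 and -0.59 with vehicle and whose summed level was highest in KO-Nut3 RH8 (526 CPM) and WT-Veh RH5 (410 CPM). Over all genes, 48 shared this pattern and 25 showed its opposite.

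*Gm21887* passed the test of the interaction in DESeq2 (log2 fold change -13.5, adjusted *P* = 0.000214) and not in edgeR (adjusted *P* = 0.126) with genes over 20 counts. It was the 1 gene that DESeq2 called, while edgeR with the filter of at least 1 count called 291. Its groups overlapped with Nutlin-3, where 1 of the 3 WT libraries had 1 read.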

How the results depend on the processing

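For KO-Nut3 against WT-Nut3, edgeR called 1 gene, and also 1 with DESeq2 size factors, filterByExpr, limma-voom, robust dispersion, all 12 libraries in 1 fit, the animal number block and the thalamus score. DESeq2 called 7, a filter of at least 1 count 38, the choroid plexus score as a term 2 (*Fmr1* and *Rbp3*) and the fibroblast score, chosen after seeing the data, 0 (*Fmr1* adjusted *P* = 0.239 in edgeR at a log2 fold change of -1.08). Leaving out single libraries gave 0 (without RH14) to 7 (without RH9). For KO-Veh against WT-Veh there were 4 in edgeR, 22 in DESeq2, 272 with at least 1 count, 1 with all 12 libraries in 1 fit, and 2 (without RH7 or RH10) to 11 (without RH15) with a library left out. For the interaction of genotype and treatment there were 0 in edgeR, 1 in DESeq2, 291 with at least 1 count, and 0 (without RH9, for example) to 1 (without RH1) with a library left out. Of 88 named genes followed through 17 other fits, 82 kept their sign. With the choroid plexus score the log2 fold change was -0.06306 for *Mdm2*, -0.338 for *Enpp2* and -0.2017 for *Aqp1*, and with the thalamus score -2.841 for *Pax7* and -0.0791 for *Shox2*. *Enpp2* and *Aqp1* belong to the choroid plexus list and *Shox2* to the thalamus list, so their shift with that score is partly built in. With a library left out the log2 fold change ranged from -0.06291 to 0.0598 for *Mdm2*, from -1.842 (without RH6) to 9.39 for *Pax7* and from -0.2794 to 0.01582 for *Arc*. The medians of 14 of the 26 lists changed sign in at least 1 fit, and those of the FMRP target, glutamate, extracellular matrix and endothelium lists in none. Those of the choroid plexus, fibroblast and thalamus lists did so only with their own score as a term, which is made of the same genes. No paired analysis was possible because the groups share no replicate number. With 3 libraries per group and a choroid plexus, thalamic or fibroblast content that differed between them, the tissue content of the libraries and the genotype cannot be fully told apart. Genes of few reads such as *Neurog2* are limited by depth, since 3 counts lay at up to 0.172 CPM.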
